A study of Chlamydomonas reinhardtii with 34 samples.

Results

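The strain difference in late nitrogen starvation was taken from 6 of the 34 RNA-seq libraries of the green alga Chlamydomonas reinhardtii. They were the 3 libraries of sta6 (CC-4348) and the 3 libraries of CC-4349 sampled 24 h after removal of nitrogen, 48 h after removal, and at 0 h of acetate addition to cultures starved for 48 h. The pairs were chosen by time point and strain alone. Both strains were grown in HSM, a medium with ammonium and without acetate, in the light (25 µmol photons m-2 s-1), and were washed into HSM without ammonium chloride. The other 28 libraries covered nutrient-replete cells (before the wash and at 0 h), early starvation (0.5, 2 and 4 h), middle starvation (8 and 12 h), the early acetate boost (0.5, 2 and 4 h) and the late boost (8, 12, 24 and 48 h). Each strain was a single line, so an effect of the sta6 mutation and any other difference between the lines cannot be told apart. Each strain and time point had 1 library, so the 3 time points stood in for replicates. They came from successive samples of starved cultures. A p-value therefore measured the spread of the strain difference between time points within a phase and was too small in that respect. That spread was pooled over the time points of all 6 phases and was not that of late starvation alone.

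Nitrogen-starved Chlamydomonas dismantles part of its photosynthetic apparatus and stores carbon as starch and triacylglycerol in lipid droplets. The sta6 mutant is starchless, because the step that makes the sugar nucleotide for starch is blocked, and it is known for a high triacylglycerol content when acetate is given during starvation. The deposited table identifies gene models by locus number only, and the reference used here gives no product or symbol for any of them. Loci are therefore described by number, level, time course and neighbours, and no function is assigned to them.

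The late libraries held 22.3, 28.9 and 32.5 M reads in sta6 at 24 h, 48 h and 0 h of acetate, against 21.0, 16.0 and 21.6 M in CC-4349, as recovered from the values. For a model 1 kb long, a single read equalled 0.0308 to 0.0449 RPKM (reads scaled to the length of the model and the size of the library) in sta6 and 0.0463 to 0.0624 RPKM in CC-4349, and these limits cover counting error only. Cre03.g188250.t1.1 served as a check of the strain labels and was tied to sta6 by general knowledge of the mutant and not by the files or the reference. It had 7.45, 5.08 and 5.16 RPKM in sta6 against 148, 100 and 148 RPKM in CC-4349, a late log2 difference of -4.27 ± 0.147 (SE). Over all 17 time points it lay between 0.957 and 7.45 RPKM in sta6 and between 100 and 304 RPKM in CC-4349, so the strains did not overlap. An exact permutation test on 3 pairs cannot give a p below 0.25, and the test on this locus was the fit across all genes (limma, adjusted p = 1.00e-11). Next to it, Cre03.g188300.t1.2, chosen after its values were seen, had 0 in the 3 late sta6 libraries, against 5.76, 5.69 and 6.07 RPKM in CC-4349.

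Late starvation separated the strains at 1338 loci, 524 higher (3.61%) and 814 lower (5.61%) in sta6. Together these were 9.22% of the 14513 gene models with a mean of at least 1 RPKM, and a call needed an adjusted p under 0.05 and at least a 2-fold change on the log2(RPKM + 1) scale, which understates the change of low loci. Among the calls, 346 differed at least 4-fold and 116 at least 8-fold. The sign was the same at all 3 time points in 1334 of the 1338 calls, against 59.3% of all loci tested, and 785 of the calls were past 2-fold in each pair. The sta6 and CC-4349 values did not overlap in 1283 of the calls. A call on the mean of the pairs favours both counts. Over all loci tested the strains did not overlap in 37.8%, with sta6 above in 10.7% and below in 27.1%.

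That imbalance went with a shift of the whole distribution. The median log2 difference over all loci was -0.14, and it was -0.00104 after median-of-ratios scaling. With that scaling 655 loci were higher and 614 lower in sta6, and after quantile normalization the counts were 670 and 616. Which direction holds the majority of calls is thus set by the scaling, and the fold changes given here stand on the deposited scale, relative to a median of -0.14.

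**Figure D1:**
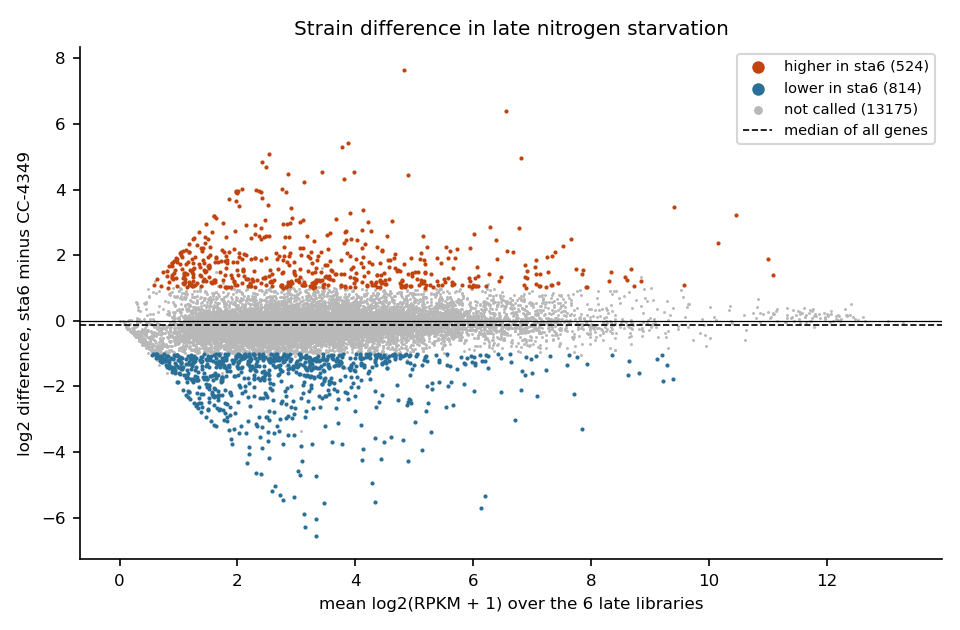
Strain difference of each of the 14513 loci (sta6 minus CC-4349, log2) against its mean log2(RPKM + 1) over the 6 late libraries, each point 1 locus. The 524 loci higher and 814 lower in sta6 are coloured, and the dashed line is the median of -0.14. Points along the edges at low levels are loci near 0 in 1 strain.

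Pair by pair, the loci past 2-fold numbered 789 higher (5.44% of loci tested) and 982 lower (6.77%) in sta6 at 24 h, 610 higher (4.2%) and 746 lower (5.14%) at 48 h, and 631 higher (4.35%) and 1381 lower (9.52%) at 0 h of acetate. The medians of these differences were -0.15, -0.06 and -0.23 on the log2 scale. On the deposited scale the 0 h acetate pair held the most falls and the lowest median. With median-of-ratios scaling the falls numbered 735, 667 and 887 at 24 h, 48 h and 0 h of acetate. The 0 h acetate pair thus still held the most. With quantile normalization they numbered 802, 667 and 761, and the 24 h pair held the most. Both scalings bring the medians near 0 by construction, so the order of the medians cannot be read there. The lowest were -0.0116 and -0.0335, both at 24 h. The 48 h and 0 h acetate libraries carry the same starvation time. In sta6, 185 loci were more than 2-fold higher and 274 lower at 0 h of acetate than at 48 h. In CC-4349, 180 were higher and 153 lower. The median change was -0.18 in sta6 and 0.00167 in CC-4349 on the log2 scale. The excess of falls in sta6 thus went with a shift of its whole distribution, and these counts were not rescaled. No replicate stands behind these single-pair counts. Across the 14513 loci, which are not independent, the differences correlated with Pearson's r of 0.812 between 24 h and 48 h, 0.797 between 48 h and 0 h of acetate and 0.747 between 24 h and 0 h of acetate, as a description.

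Among the loci that were higher in sta6, those with the largest rises fell into unlike time courses. Cre06.g283950.t1.1, with the largest rise of all, had 1179.7, 245 and 223 RPKM in late sta6 against 2.15, 0.878 and 0.391 RPKM in CC-4349. Its difference was 7.64 ± 0.381 (log2, SE; limma adjusted p = 8.32e-10), with the highest sta6 value at 24 h and no overlap. In replete cells both strains had held it high, with 1021.9 and 820 RPKM in sta6 and 981 and 1154.6 RPKM in CC-4349. In CC-4349 it stood at 207 RPKM at 8 h and 34.4 RPKM at 12 h, and the boost libraries of that strain held 1.60 RPKM at most. In sta6 it stood at 133 RPKM at 12 h, its lowest value, before the 24 h value.

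Cre12.g548950.t1.1 also went from high replete levels in both strains to low late levels in CC-4349. It had 693, 659 and 553 RPKM in late sta6 and 39.2, 26.0 and 6.48 RPKM in CC-4349, a difference of 4.98 ± 0.36 (limma adjusted p = 5.47e-08). At 12 h without nitrogen the strains stood the other way round, with 178 RPKM in sta6 against 667 RPKM in CC-4349. Levels had been far higher in replete cells, where sta6 held 10837.1 and 9333.1 RPKM and CC-4349 held 10534.9 and 10882.3 RPKM. The strain order therefore turned between 12 h and 24 h at this locus.

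Further loci with a large rise had been similar in replete cells. Cre06.g284600.t1.1 had 39.3, 15.8 and 11.4 RPKM in late sta6 and 0.352, 0.395 and 0.147 RPKM in CC-4349. It had begun at 325 and 309 RPKM in replete sta6 and at 317 and 340 RPKM in replete CC-4349. Cre03.g155250.t1.1 had 15.3, 17.3 and 28.6 RPKM in late sta6 and 0.307, 0.402 and 0.341 RPKM in CC-4349. At 2 h it had been lower in sta6, at 0.858 RPKM, against 14.6 RPKM in CC-4349. Cre32.g781300.t1.1, which has no RefSeq match and was chosen after its values were seen, had 1111.5, 776 and 738 RPKM in late sta6 and 49.2, 6.55 and 1.90 RPKM in CC-4349, a difference of 6.38 ± 0.446. At each of these the late CC-4349 levels lay below those of middle starvation, and the late sta6 levels within or above them.

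**Figure D2:**
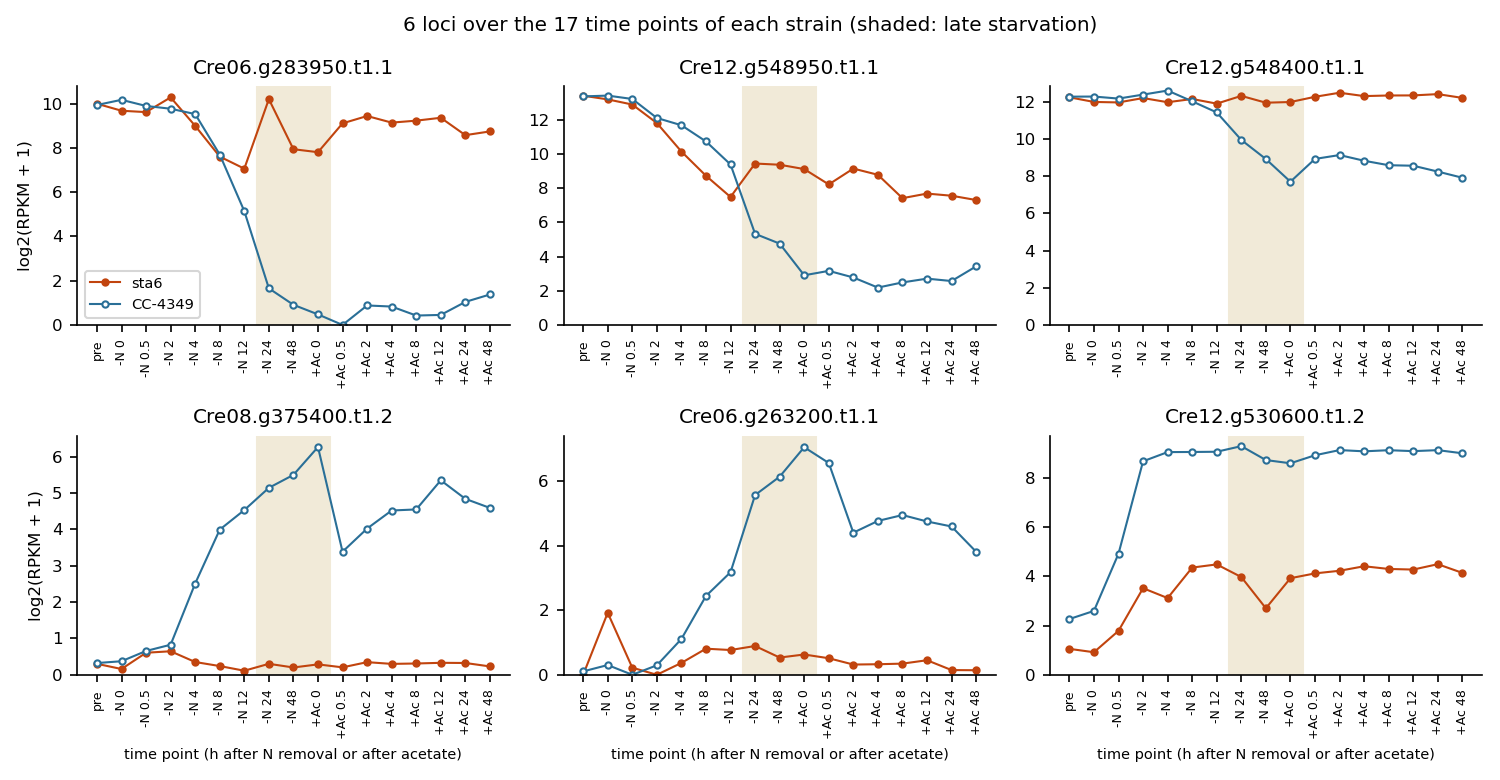
Level of 6 loci, as log2(RPKM + 1), at the 17 time points of sta6 (filled) and CC-4349 (open), 1 library per point, with the 3 late time points shaded. The upper row shows loci whose late CC-4349 values lay far below the replete ones, with late sta6 values of 223 RPKM or more. At Cre12.g548400.t1.1 CC-4349 still held 987, 483 and 207 RPKM. The lower row shows loci that climbed in CC-4349, with late sta6 values of 14.7 RPKM at most.

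Another kind of rise had late sta6 levels above those of replete sta6, with CC-4349 low throughout. Cre10.g425050.t1.2 had 67.0, 63.3 and 55.4 RPKM in late sta6 against 3.38, 2.39 and 1.103 RPKM in CC-4349, and replete sta6 had 9.84 and 7.73 RPKM. In CC-4349 it never passed 4.07 RPKM at any of the 17 time points. Cre16.g681351.t1.1 had 43.4, 39.7 and 29.4 RPKM in late sta6 against 1.55, 1.26 and 0.409 RPKM in CC-4349, and 12.1 RPKM at 12 h in sta6. Cre03.g205950.t1.2 already differed in replete cells, with 27.5 and 42.8 RPKM in sta6 and 0.78 and 0.449 RPKM in CC-4349, and reached 110, 81.0 and 93.5 RPKM in late sta6 against 1.15, 1.67 and 0.961 RPKM in CC-4349. Its late difference was 5.41 ± 0.174 (limma adjusted p = 5.33e-12), and it was called the same way in all 5 other phases.

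A last kind was close to silent in CC-4349 throughout. Cre04.g219250.t1.1 had 30.0, 28.8 and 24.3 RPKM in late sta6 and was listed at 0 in the 3 late libraries of CC-4349. Set against 3 reads in each of those libraries, it was at least 419.6-fold higher in sta6. Its highest value in the 17 CC-4349 libraries rested on 2 reads. Cre04.g219450.t1.1 (17.5, 14.2 and 12.0 RPKM in sta6, listed at 0 in CC-4349) and Cre04.g219600.t1.1 (15.5, 11.3 and 16.7 RPKM in sta6, at most 2 reads in a late CC-4349 library) are its near neighbours. Cre06.g299550.t1.1 had 26.5, 32.7 and 24.3 RPKM in sta6 and at most 3 reads in a late CC-4349 library. Whether such loci are missing from the genome of a line was not tested. Cre15.g642800.t1.1 had 43.3, 51.3 and 60.01 RPKM in sta6 and 0, 3.23 and 1.60 RPKM in CC-4349, but its implied length of 58 bases puts only 56, 86 and 113 reads behind the sta6 values.

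**Figure D3:**
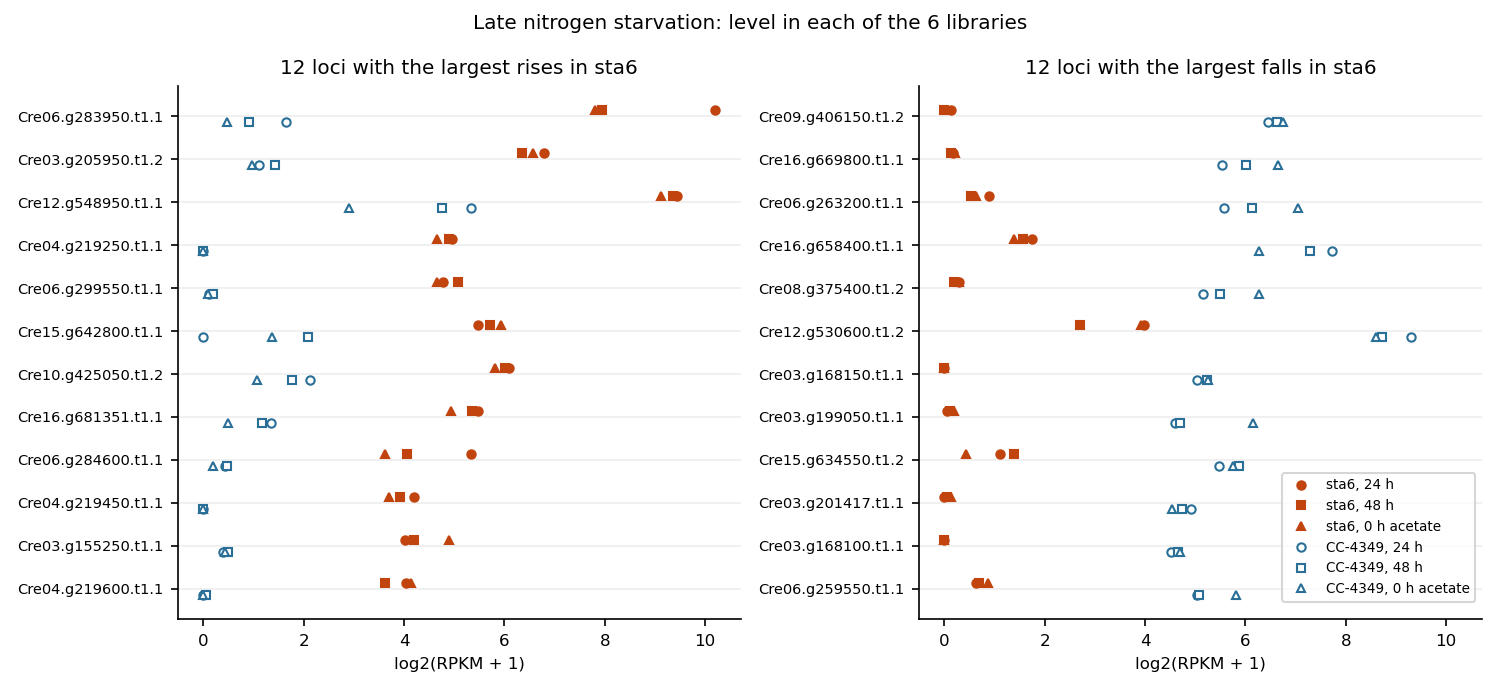
Level of the 12 loci with the largest rises (left) and the 12 with the largest falls (right) in each late library, as log2(RPKM + 1), with sta6 filled and above CC-4349 (open), and the marker giving the time point. No locus shows overlap between the strains. Each rise is at least 3.92 and each fall at least 4.57 on the log2 scale.

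The 12 loci with the largest rises had adjusted p-values up to 1.99e-05 and standard errors of 0.142 to 0.515 (limma). The 12 with the largest falls had adjusted p-values up to 2.23e-07 and standard errors of 0.114 to 0.462. All 24 were required to have the same sign at the 3 time points and a RefSeq match. Of these 24 loci, Cre06.g283950.t1.1 had the largest SD over the late sta6 libraries, 546 RPKM around a mean of 549 RPKM.

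At 6 of the 12 largest falls CC-4349 lay at least 3.97 above its replete mean on the log2 scale, while sta6 lay within 1 of its own. Cre09.g406150.t1.2 had 0.0963, 0 and 0.0132 RPKM in late sta6 against 86.1, 97.6 and 106 RPKM in CC-4349, a difference of -6.55 ± 0.375 (limma adjusted p = 4.50e-09). The sta6 values rest on 5, 0 and 1 reads. In sta6 it had its highest value, 3.98 RPKM, at 2 h. Cre06.g263200.t1.1 had 0.854, 0.447 and 0.545 RPKM in late sta6 against 46.3, 69.2 and 131 RPKM in CC-4349, where replete cells had 0.0752 and 0.232 RPKM.

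Several of the falls shared a course in CC-4349 with its maximum at 0 h of acetate and a much lower value soon after. Cre08.g375400.t1.2 had 0.232, 0.149 and 0.219 RPKM in late sta6 against 34.4, 44.3 and 76.2 RPKM in CC-4349, and 9.46 RPKM in CC-4349 at 0.5 h of acetate. Cre16.g669800.t1.1 had 0.133, 0.102 and 0.160 RPKM in late sta6 against 45.4, 63.7 and 98.8 RPKM in CC-4349, and 7.92 RPKM there at 0.5 h. Cre03.g199050.t1.1 had 0.0379, 0.0877 and 0.139 RPKM in late sta6 against 23.3, 24.9 and 70.5 RPKM in CC-4349, and 4.72 RPKM there at 0.5 h. These loci had at most 0.627 RPKM in any of the 17 sta6 libraries. Cre06.g259550.t1.1 had 0.557, 0.624 and 0.839 RPKM in late sta6 against 31.6, 32.5 and 55.5 RPKM in CC-4349, and 2.997 RPKM there at 0.5 h. In sta6 its highest value was 2.93 RPKM, at 24 h of acetate. Cre06.g263200.t1.1 also peaked at 0 h of acetate but dropped later, with 93.2 RPKM at 0.5 h and 20.1 RPKM at 2 h of acetate in CC-4349.

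The models next to each other by locus number, Cre06.g254900.t1.2, Cre06.g254950.t1.2 and Cre06.g255000.t1.1, lack a RefSeq match and were chosen after their values were seen. Cre06.g254900.t1.2 had 0, 0.0323 and 0 RPKM in late sta6 against 58.2, 72.8 and 109 RPKM in CC-4349. Cre06.g254950.t1.2 had 0, 0.0314 and 0.0559 RPKM in late sta6 against 41.1, 33.5 and 62.6 RPKM in CC-4349. Cre06.g255000.t1.1 had 0.0226, 0.0567 and 0.0388 RPKM in late sta6 against 33.4, 36.5 and 54.4 RPKM in CC-4349. At most 13 reads lay behind any of these sta6 values. In CC-4349 the locus Cre06.g254900.t1.2 also dropped from its 0 h acetate level to 15.9 RPKM at 0.5 h.

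Other falls differed in how late levels stood to replete ones. Cre12.g530600.t1.2 had 14.7, 5.52 and 14.2 RPKM in late sta6 against 628, 424 and 387 RPKM in CC-4349, a difference of -5.34 ± 0.348 (limma adjusted p = 1.73e-08). Replete sta6 had 1.08 and 0.887 RPKM and replete CC-4349 had 3.81 and 5.05 RPKM, so late levels lay above replete ones in both strains and the strains kept their order. Cre16.g658400.t1.1 had 2.37, 1.98 and 1.62 RPKM in late sta6 against 211, 156 and 76.6 RPKM in CC-4349. Its highest sta6 value, 6.02 RPKM, came at 12 h. Cre15.g634550.t1.2 had 1.17, 1.61 and 0.358 RPKM in late sta6 against 43.6, 57.3 and 52.7 RPKM in CC-4349. Its replete values were 1.39 and 0 RPKM in sta6 against 19.8 and 8.30 RPKM in CC-4349.

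Further falls were near silence in sta6 whatever the phase. Cre03.g168150.t1.1 was listed at 0 in the 3 late sta6 libraries against 31.7, 36.7 and 37.2 RPKM in CC-4349, at least 1016.6-fold lower in sta6 at 3 reads per library. Its neighbour Cre03.g168100.t1.1 was listed at 0 in late sta6 against 21.8, 24.3 and 24.9 RPKM in CC-4349, at least 686-fold lower. These loci had at most 8 and 12 reads in any sta6 library. Cre03.g201417.t1.1 had 0, 0.0422 and 0.0939 RPKM in late sta6 against 29.4, 25.7 and 22.1 RPKM in CC-4349.

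Silence in 1 strain was counted over all gene models with an implied length of at least 200 bases. In late sta6, 29 models had at most 3 reads in each library while each late CC-4349 library had at least 1 RPKM, and 10 of the 29 had at most 3 reads in each of the 17 sta6 libraries. In late CC-4349 the corresponding numbers were 44 models, and 35 of the 44 in all 17 libraries. Libraries of sta6 were deeper in each late pair, so a limit of 3 reads is stricter in sta6. Over all 17 time points the totals ran from 5.72 to 53.9 M reads in sta6 and from 10.7 to 24.1 M in CC-4349. The counts over 17 libraries were therefore not reached under equal limits either. The present strain held a median of 4.28 RPKM at the models silent in sta6 and 3.71 RPKM at those silent in CC-4349, both low levels.

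The most abundant loci called in each direction differed by smaller folds. Cre12.g548400.t1.1 had 5098.6, 3954.7 and 4055.7 RPKM in late sta6 against 987, 483 and 207 RPKM in CC-4349, a difference of 3.23 ± 0.231 (limma adjusted p = 5.21e-08). It stayed between 3820.1 and 5732.0 RPKM in all 17 sta6 libraries. Cre06.g285250.t1.1 had 5727.7, 3470.7 and 3146.9 RPKM in late sta6 against 1319.0, 1024.7 and 890 RPKM in CC-4349. In replete cells Cre12.g548400.t1.1 had 4836.7 and 4068.1 RPKM in sta6 against 4951.3 and 4974.3 RPKM in CC-4349, so the strains were close. At Cre06.g285250.t1.1 the replete libraries overlapped and sta6 was the lower strain at 12 h, with 1599.8 RPKM against 3021.6 RPKM in CC-4349. Cre02.g120150.t1.1 had 6747.8, 2421.7 and 2747.2 RPKM in late sta6 against 1276.8, 1120.2 and 1684.8 RPKM in CC-4349, and it had already been higher in replete sta6. Its difference of 1.41 ± 0.212 (limma adjusted p = 0.000130) rests on the 24 h pair: without either 24 h library it was 0.91 and no longer 2-fold.

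On the lower side, Cre17.g702950.t1.1 had 490, 176 and 565 RPKM in late sta6 against 1960.7, 796 and 1232.7 RPKM in CC-4349. Its difference was -1.76 ± 0.257 (limma adjusted p = 9.47e-05), and the gap was already there in replete cells. Cre04.g216850.t1.1 had 182, 475 and 358 RPKM in late sta6 against 1123.7, 1404.6 and 893 RPKM in CC-4349. In middle starvation the strains had been close at this locus, with 1379.96 RPKM in sta6 against 1065.8 RPKM in CC-4349 at 12 h. Cre06.g269750.t1.2 had 333, 440 and 409 RPKM in late sta6 against 791, 1076.5 and 1198.2 RPKM in CC-4349, after replete levels of 19.1 and 21.6 RPKM in sta6 and 42.4 and 47.4 RPKM in CC-4349. The strains thus differed less than either did from its replete level.

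Where the strains parted between replete and late cells was read from the change of each strain. Among the 524 loci higher in late sta6, sta6 was at least 2-fold above its replete mean without CC-4349 being 2-fold below its own at 179, and CC-4349 was at least 2-fold below without sta6 being so above at 128. Neither applied at 216 of them. Among the 814 lower loci, sta6 was at least 2-fold below its replete mean without CC-4349 being 2-fold above its own at 333, CC-4349 was so above without sta6 being so below at 249, and neither applied at 230. Over all loci tested, sta6 was so above without CC-4349 being so below at 18.3%. CC-4349 was so below without sta6 being so above at 10.2%. In the lower direction, sta6 was so below without CC-4349 being so above at 13.7%. CC-4349 was so above without sta6 being so below at 20.3%. The shares among the called loci were 34.2%, 24.4%, 40.9% and 30.6% in the same order, and the late libraries enter both readings. Loci that changed the same way in both strains are not excluded, so these shares do not measure strain-specific changes.

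The late strain difference was compared with the strain difference in the 4 replete libraries within 1 fit. It differed at 946 loci (6.52% of those tested), 323 in the higher (2.23%) and 623 in the lower direction (4.29%). Of the 323, 159 were also called higher in late starvation and 89 had been called lower in replete cells. Of the 623, 229 were also called lower in late starvation and 198 had been called higher in replete cells. The interaction therefore mixes late divergence with replete differences that closed. With median-of-ratios scaling it held 426 higher and 461 lower loci, and with quantile normalization 435 higher and 384 lower.

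**Figure D4:**
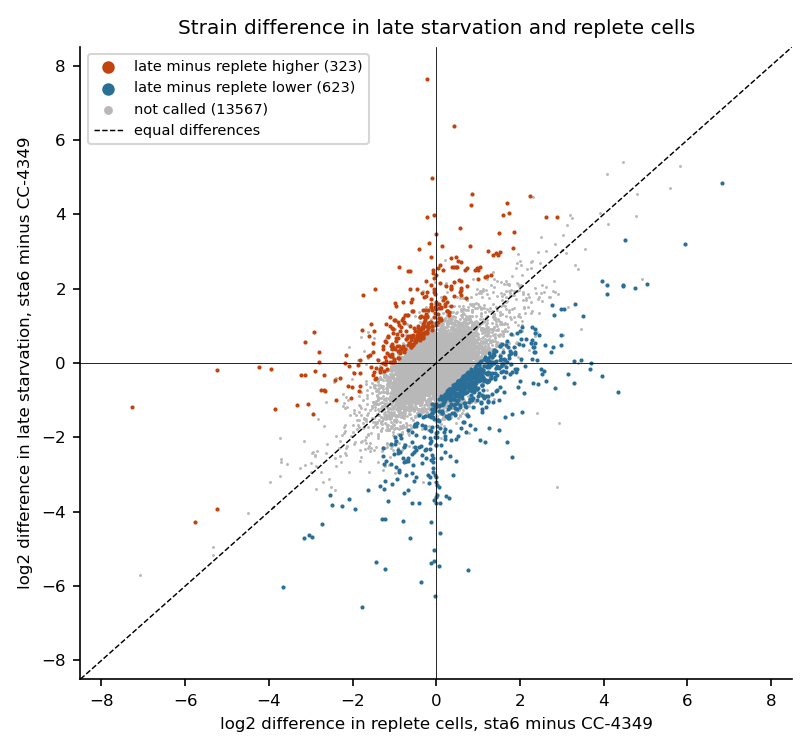
Strain difference in late starvation against the strain difference in replete cells (sta6 minus CC-4349, log2), each point 1 of 14513 loci. Loci whose 2 differences differed are coloured, 323 above and 623 below the dashed line of equal differences. The coloured points spread along both axes.

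Late divergence from similar replete levels was seen at Cre06.g283950.t1.1, with an interaction of 7.86 ± 0.602 (limma adjusted p = 8.50e-06), and at Cre12.g548950.t1.1, with 5.07 ± 0.568 (limma adjusted p = 7.44e-05). In the lower direction, Cre06.g263200.t1.1 had -6.32 ± 0.61 and Cre08.g375400.t1.2 had -5.26 ± 0.519. A closing gap was seen at Cre07.g346850.t1.1, whose interaction was 6.07 ± 0.79 (limma adjusted p = 0.000248). It had 0, 0.0456 and 0.0203 RPKM in late sta6 against 2.61, 0.658 and 1.13 RPKM in CC-4349, and the late difference of -1.19 missed the threshold (limma adjusted p = 0.0802). In replete cells it had 0.0790 and 0.781 RPKM in sta6 and 174 and 258 RPKM in CC-4349. The late sta6 values rest on 0, 2 and 1 reads and still lay below every late CC-4349 value. At such low levels the log2(RPKM + 1) scale understates the gap that remained. Cre10.g463350.t1.1 was alike, with 0, 0 and 0.0590 RPKM in late sta6 against 0.213, 0.120 and 0.118 RPKM in CC-4349 after 0 and 0.550 RPKM in replete sta6 and 17.4 and 19.1 RPKM in replete CC-4349. At Cre12.g537250.t1.1 the replete gap lay the other way, with 145 and 103 RPKM in sta6 and 4.63 and 5.57 RPKM in CC-4349, and late values of 19.5, 6.95 and 8.61 RPKM in sta6 overlapped 40.6, 18.5 and 8.76 RPKM in CC-4349.

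Against the mean strain difference of the 5 other phases, the late difference stood apart at 415 loci (2.86% of those tested), 207 in the higher and 208 in the lower direction (1.43% each). Leaving out the 0 h acetate library of sta6 gave 252 and 132, and median-of-ratios scaling 277 and 139. The phases' own differences share no library with the late one. They do share 1 fit and its residual spread at each locus, so the calls are not independent. Of the 524 loci higher in late sta6, 39.9% were called the same way in replete cells (209 loci, 35.5% of the 588 replete calls in that direction), 41.8% in early starvation, 46.2% in middle starvation, 75.4% in the early boost and 70.4% in the late boost. Among all loci tested these phases' own calls in that direction made up 4.05%, 3.38%, 3.55%, 3.8% and 3.94%. Of the 814 lower loci, 32.6% were called the same way in replete cells (265 loci, 50.3% of the 527 replete calls in that direction), 26.0% in early starvation, 34.9% in middle starvation, 64.6% in the early boost and 57.2% in the late boost, against 3.63%, 3.48%, 4.45%, 5.48% and 3.92% of all loci. The share with either boost phase was the larger in both directions, and the reason was not tested. Phases of a strain may share cultures and need not be independent. In all 5 other phases the same call was made at 131 of the higher and 123 of the lower loci. No other phase shared the call at 62 of the higher and 138 of the lower loci. Opposite calls were made at 5 of the loci higher in late sta6 and 11 of those lower in replete cells, at 34 and 1 in early starvation, at 33 and 3 in middle starvation, and at none in either boost phase.

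Called loci also lay side by side, in runs found after the values were seen. In RefSeq order, 11097 tested loci could be placed, of which 960 were called. There were 30 runs of 3 or more neighbours called in the same direction, and they held 121 of these loci, 8 runs higher and 22 lower in sta6. The longest run, from Cre04.g218950.t1.2 to Cre04.g219650.t1.1, held 13 loci, all higher in sta6, with late differences of 1.27 to 4.84. Mean late levels in this run ranged from 1.95 to 27.7 RPKM in sta6 and from 0 to 2.05 RPKM in CC-4349, and 12 of the 13 had at most 3 reads in each late CC-4349 library. The exception was its first member, Cre04.g218950.t1.2, with 6.16, 9.07 and 4.53 RPKM in sta6 against 1.94, 2.29 and 1.93 RPKM in CC-4349. In 11 of the 13 the same call was made in all 6 phases.

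The second run, from Cre17.g702950.t1.1 to Cre17.g703700.t1.1, held 11 loci lower in sta6, with differences of -1.10 to -3.21. Cre17.g703550.t1.1 had 1.48, 1.08 and 0.762 RPKM in sta6 against 17.001, 17.5 and 20.4 RPKM in CC-4349, the largest fall of the run. Cre17.g703300.t1.2 was listed at 0 in the 3 late sta6 libraries against 3.45, 3.86 and 4.14 RPKM in CC-4349, while the other members kept reads in both strains. Inside this stretch by number, but not members of the run, lay Cre17.g703150.t1.1 and Cre17.g703000.t1.2, picked after their values were seen. They had at most 1 and 2 reads in a late sta6 library. A further 4 loci lower in sta6, Cre17.g702600.t1.2 to Cre17.g702750.t1.1, lay before it, with 3 uncalled loci between. Of the 11, 6 were called in all 6 phases, and with median-of-ratios scaling 9 of the 11 kept the call. Shorter runs held 7 loci higher in sta6 (Cre12.g540650.t1.1 to Cre12.g541050.t1.1), 6 lower (Cre13.g602800.t1.2 to Cre13.g603100.t1.2) and 5 lower (Cre06.g270100.t1.2 to Cre06.g270300.t1.2). In these last 2 runs none of the members was called in all 6 phases.

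**Figure D5:**
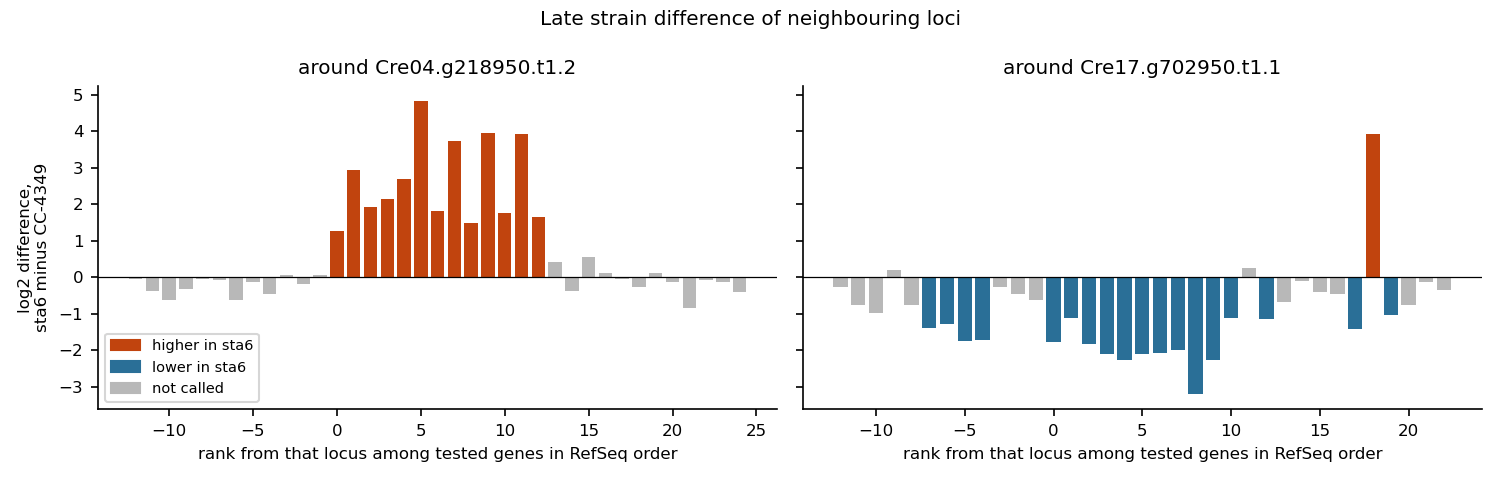
Late strain difference (sta6 minus CC-4349, log2) of tested loci in RefSeq order around the 2 longest runs, by rank from the first member of the run, 1 bar per locus. In the left panel 13 bars in a row are higher in sta6, with uncalled loci on both sides. In the right panel 11 bars in a row are lower, with further called loci nearby.

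By the number at the head of the locus identifier, the share of tested loci called ran from 6.46% for 5 to 20.5% for 15, among numbers with at least 100 tested loci. Number 15 had 24 higher and 22 lower among 224 loci, and 17 had 21 higher and 91 lower among 821 loci, or 13.6%. Number 6 had 63 higher and 71 lower among 1114 loci, or 12.0%. Number 4 held 22 higher and 13 lower among 345, or 10.1%, less than 18 (12.9%) and 16 (11.2%). The median implied length was 2046 bases for loci higher in sta6, 2404 bases for those lower and 2318.5 bases for all tested loci. The median late level was 10.1 RPKM for the higher, 6.70 RPKM for the lower and 8.38 RPKM for all tested loci. At most 40 reads in the highest late library lay behind 27 of the 1338 calls, against 289 of the 14513 loci tested. Reads were not recovered for 9 of the calls and 55 of the loci tested.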

How the data were processed

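Transcript levels were read from 1 deposited table of 17301 gene models and 34 libraries. Before deposit the authors aligned reads with Bowtie, per the submitters' processing notes, and turned them into values taken here as RPKM. The table names no unit, and RPKM was read from low values being multiples of a step set by model and library. Sources used here give no version, genome build, annotation, filter, or rule for counting or strand, and reads shared by near-identical or overlapping models cannot be told apart.

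The steps gave library totals, implied model lengths and whole reads in 16820 models (97.2%). Agreement with whole numbers within 0.02 reads is largely fixed by that search. The strain differences came from limma 3.58.1 (R 4.3.3) on log2(RPKM + 1), over all 34 libraries, with the 17 time points as blocks and 1 strain difference for each of 6 phases (11 residual degrees of freedom, empirical Bayes with trend, Benjamini-Hochberg adjustment). Models with a mean of at least 1 RPKM were tested. The block was used because strains share time points: deviations from the group means of same-time libraries correlated at 0.425 (24 h), 0.438 (48 h) and 0.184 (0 h of acetate). Fit and recovery were tested on simulated data.

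Loci named are the 12 largest rises and 12 largest falls with 1 sign at all 3 time points and a RefSeq match, the 6 largest late-minus-replete differences each way, the 3 most abundant calls each way, the label-check locus, and loci said to be chosen later. Comparison, lists and rule were chosen with earlier results of these data known. By locus tag, 12666 of 17301 identifiers (73.2%) were found in RefSeq's assembly Chlamydomonas_reinhardtii_v5.5, which gave neighbours only. No symbol matched any of 15 gene lists, which were left out. Other scalings, pseudocounts, filters, designs and left-out libraries were tried as alternatives.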

Additional observations from a re-analysis of the deposited data

Results flagged for a closer look

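The strain difference differed between late starvation and replete cells at 946 loci, and between late starvation and the mean of the other phases at 415. Among the loci named, 30 were of the first kind, each tested as late minus replete strain difference in 1 limma fit, in log2 units.

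The difference was more positive in late starvation at Cre06.g283950.t1.1 (7.86), Cre07.g346850.t1.1 (6.07), Cre32.g781300.t1.1 (5.95), Cre12.g548950.t1.1 (5.07), Cre03.g155250.t1.1 (4.16) and Cre06.g284600.t1.1 (4.03). Smaller shifts the same way were found at Cre10.g463350.t1.1 (3.78), Cre16.g681351.t1.1 (3.41), Cre12.g548400.t1.1 (3.39), Cre10.g425050.t1.2 (2.61), Cre06.g285250.t1.1 (1.95), Cre03.g188250.t1.1 (1.49) and Cre04.g219600.t1.1 (1.04). At the label-check locus this shift left sta6 far below CC-4349 in both phases.

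It was more negative at Cre06.g263200.t1.1 (-6.32), Cre06.g254900.t1.2 (-6.23), Cre06.g254950.t1.2 (-5.53), Cre16.g669800.t1.1 (-5.52), Cre06.g255000.t1.1 (-5.28) and Cre08.g375400.t1.2 (-5.26). Further loci of that direction were Cre12.g537250.t1.1 (-5.13), Cre03.g199050.t1.1 (-4.99), Cre09.g406150.t1.2 (-4.79), Cre06.g259550.t1.1 (-4.64), Cre16.g658400.t1.1 (-4.30) and Cre12.g530600.t1.2 (-3.89). Shifts nearer to 0 were those of Cre04.g219250.t1.1 (-1.98), Cre04.g216850.t1.1 (-1.71), Cre03.g201417.t1.1 (-1.70), Cre03.g168100.t1.1 (-1.57) and Cre15.g634550.t1.2 (-1.55). At Cre04.g219250.t1.1 sta6 held 86.9 and 151 RPKM in replete cells and 30.0, 28.8 and 24.3 RPKM in late ones. CC-4349 had 0.0467 and 0 RPKM in replete cells and 0 in each late library. The shift is thus the lower late level of sta6, and whether the fold between the strains narrowed cannot be read.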

How the results depend on the processing

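For the late strain difference (1338 loci), pseudocount 0.1 gave 2012, pseudocount 5 gave 602 and limma voom on recovered reads, chosen after seeing the data, 2110. For late minus replete (946), pseudocount 5 gave 454 and the pre-wash libraries alone as replete 503. For late minus the other phases (415), pseudocount 0.1 gave 709, pseudocount 5 gave 180 and voom 698. Without the replicate block by time point the 3 counts were 1173, 415 and 147. Past 2-fold, pseudocount 5 left 814 of 1771 loci at 24 h, 693 of 1356 at 48 h and 771 of 2012 at 0 h of acetate, where pseudocount 0.1 gave 3077 and a mean of at least 5 RPKM 1280. The label check locus, Cre03.g188250.t1.1, stood at -3.64 with pseudocount 5. A pseudocount moves low loci by construction; the cause of the other changes was not tested. Leaving out 1 late library gave 1218 to 1427, 776 to 926 and 308 to 384 loci; in a paired fit this drops the pair. The 895 alternatives for single loci covered 50 results, which did not include every interaction flagged above. Whether the interactions left out kept their calls was not counted. None of the 895 turned a direction. The call was lost in 5, namely 3 for Cre02.g120150.t1.1 and 1 interaction each for Cre03.g155250.t1.1 and Cre10.g463350.t1.1. A call was gained in 4, 3 for Cre07.g346850.t1.1 and 1 for Cre10.g463350.t1.1. At pseudocount 5 the runs of 13 and 11 loci kept 6 and 8 calls, and those of 7, 6 and 5 loci kept 3, 1 and 1. Every member of these runs stayed on its side of 0. The run of 5 loci kept 3 calls with median-of-ratios scaling and 3 with quantile normalization.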
